A study of Mus musculus with 2 samples.

Results

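Hepatocyte nuclei carrying at least 2 UMIs of *Cdkn1a* were examined in the livers of mice with diet-induced MASH (metabolic dysfunction–associated steatohepatitis). A UMI is a molecular tag that counts 1 captured RNA molecule. A nucleus was taken as a hepatocyte nucleus when it held at least 300 genes and 3000 UMIs and no more than 1 UMI in all of *Reln*, *Dcn*, *Ptprb*, *Clec4g*, *Ms4a7*, *Clec4f*, *Pkhd1* and *Bcl11b*, which mark stellate, endothelial, macrophage, biliary and T cells. By this rule there were 88 such nuclei, called *Cdkn1a* nuclei below, among 5797 hepatocyte nuclei of the Flox-labelled library, and 195 among 4070 of the HKO-labelled library. The libraries held 9363 and 10748 nuclei in all. The nuclei were thus chosen by their *Cdkn1a* UMIs, their depth and the exclusion genes. *Cdkn1a* and the exclusion genes were left out of the comparisons, and depth was matched.

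Both libraries were made from male C57BL6/J mice fed the MASH diet (AMYLIN liver NASH diet in the labels, with 2% cholesterol, 20 kcal% as fructose and 40 kcal% as fat) for 5 months from an age of 10 to 12 weeks. The Flox-labelled library came from *Themis* flox/flox mice, and its title also says WT. The HKO-labelled library came from *Themis* Alb-Cre mice, in which the albumin promoter drives Cre in hepatocytes. Livers of several mice of a genotype were pooled into 1 library, nuclei were sorted by FACS, and 3′ snRNA-seq was run with reads in introns left uncounted. With 1 library per genotype and no way to separate the mice, there was no replicate check and no test. Genotype and library cannot be told apart, and every interval below is a 95% interval that covers counting error only.

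The HKO-labelled library was the shallower, with a median of 2227.5 UMIs per nucleus against 6216. The barcodes shared by both libraries numbered 27, and none was a *Cdkn1a* nucleus. *Themis*, the targeted gene, was not lower in the HKO-labelled library. In *Cdkn1a* nuclei it stood at 230 counts per 1000000 UMIs (CPM) against 158 in the Flox-labelled library, a ratio of 1.45 (1.19 to 1.78), so the names of the libraries are used here as labels only. Whether these 3′ counts fall in the deleted part of *Themis* was not tested. Few UMIs of other cell types were present in *Cdkn1a* nuclei. The macrophage list of 10 genes summed to 13.8 CPM in the Flox-labelled library (25.4 in matched nuclei) and 40.2 CPM in the HKO-labelled library (40.5), with *Vsig4* and *Adgre1* at 0 UMIs in the former. Endothelial genes summed to 26.5 and 29.4 CPM, stellate genes to 16.2 and 13.4, and T cell genes to 0 and 1.91 CPM. The 7 cholangiocyte genes summed to 27.7 CPM (29.998 in matched nuclei) and 55.5 CPM (46.1), mostly *Sox9* and *Spp1*, with *Krt7* and *Cftr* at 0 in both. Of 6 genes of dendritic cells and neutrophils there were 0 UMIs in *Cdkn1a* nuclei of the Flox-labelled library. In the HKO-labelled library there were 10, against 17 in the matched nuclei, a ratio of 2.93 (1.20 to 6.78). The part of these cells in the results was not tested.

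*Cdkn1a* encodes p21, an inhibitor of cyclin-dependent kinases that halts the cell cycle. Its best known activator is the transcription factor p53, which is stabilised by DNA damage and other stress and also switches on *Mdm2*, the ligase that degrades p53 again. Lasting p21 expression is a hallmark of cellular senescence, in which cells stop dividing and secrete growth factors and cytokines, and p21-high hepatocytes are known from fatty liver disease. p53 binds DNA as a tetramer, and its binding sequences hold paired copies of a half-site with CATG at the core. The letters CATGNNNNNNCATG, which read the same on both strands, were therefore looked for in the RefSeq promoter windows of GRCm38.p6 (250 bases before to 50 after each start).

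*Cdkn1a* (ENSMUSG00000023067; GRCm38 chromosome 17, 29090976 to 29100727, plus strand) has 2 such windows, and the first holds the motif once. It is shown because it is the gene that defines the nuclei, at chr17:29090869-29090968 on the plus strand of GRCm38.p6, with the motif and its 6 free bases in capitals.
*Cdkn1a*, upstream of its first start: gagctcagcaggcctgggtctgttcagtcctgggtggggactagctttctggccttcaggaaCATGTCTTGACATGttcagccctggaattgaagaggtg
The motif began 48 bases before the first annotated start and 2838 bases before the second. Of all 32851 windows, 234 (0.712%) held it. Among the genes tested that have a window, 27 of 8245 (0.3275%) held it, and 0 of 18 from the list of p53 targets. At so low a share, 0 of 18 does not tell the p53 targets apart from other genes. A match is a description of letters, and 3′ reads do not tell which start was used.

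Among hepatocyte nuclei, 93.2% in the Flox-labelled library and 82.5% in the HKO-labelled library carried no UMI of *Cdkn1a*. In the Flox-labelled library, 309 nuclei had 1 UMI, 59 had 2, and 29 had 3 or more, with a maximum of 9. Of nuclei in the HKO-labelled library, 517 had 1 UMI, 123 had 2, and 72 had 3 or more, with a maximum of 19. Just outside the threshold, nuclei with 1 UMI had median depths of 7968 and 6562 total UMIs. Just inside it, nuclei with 2 had 8615 and 7282, so the choice by UMIs favoured deeper nuclei. The *Cdkn1a* nuclei held 43.2% and 50.9% of all *Cdkn1a* UMIs of hepatocyte nuclei.

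**Figure D1:**
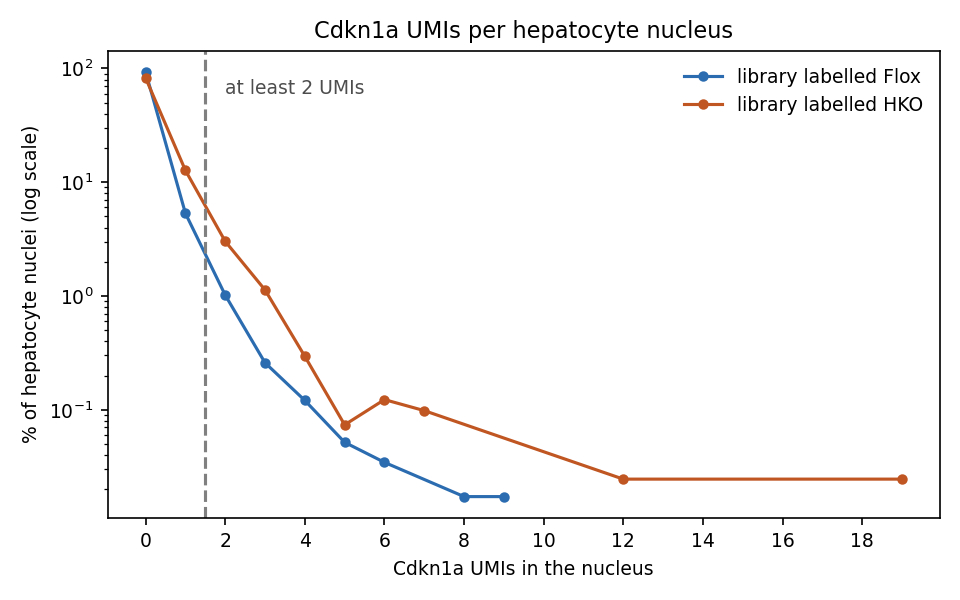
Share of hepatocyte nuclei (%, log axis) by number of *Cdkn1a* UMIs in the nucleus, for the libraries labelled Flox (5797 nuclei) and HKO (4070 nuclei). The points are joined to guide the eye, and the dashed line marks the threshold of 2 UMIs. From 1 to 6 UMIs the points of the HKO-labelled library lie above those of the Flox-labelled library, and from 7 UMIs upward each point is 1 to 4 nuclei.

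The share of hepatocyte nuclei with at least 2 *Cdkn1a* UMIs was 1.52% (1.22 to 1.87) in the Flox-labelled library and 4.79% (4.16 to 5.49) in the HKO-labelled library, the shallower of the libraries. Thinned to 3000 UMIs each, an expected 20 of 5797 nuclei (0.345%, 0.211 to 0.532) and 61 of 4070 (1.499%, 1.15 to 1.92) kept 2. The ratio of the shares, HKO over Flox, was 4.34 (2.58 to 7.60) after thinning and 3.16 (2.44 to 4.11) before it. These values describe the selection and are not a test of the genotype.

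To set hepatocytes beside other cells, nuclei with at least 1000 UMIs were thinned to 1000. An expected 1.16% (0.917 to 1.46) and 3.20% (2.76 to 3.69) of hepatocyte nuclei then kept a *Cdkn1a* UMI. Stellate nuclei did so in 0.468% (0.128 to 1.19) and 0.437% (0.119 to 1.11), and cholangiocyte nuclei in 0 of 76 (taken at 3 counts, a count of 0 allows up to 3.95%) and 2 of 213 (0.939%, 0.114 to 3.35). Endothelial nuclei did so in 1.97% (1.10 to 3.22) and 2.17% (1.13 to 3.77), and macrophage nuclei in 4.07% (2.12 to 6.998) and 2.22% (0.961 to 4.32). Depth medians stood at 7260 and 5055 UMIs in hepatocyte nuclei before thinning, at 1836 and 1562 in stellate nuclei, and between 1325.5 and 2353 in the other types. In the HKO-labelled library the hepatocyte interval lay above the stellate one and overlapped those of the other types. In the Flox-labelled library it overlapped the stellate and endothelial intervals and lay below that of macrophages, so *Cdkn1a* UMIs were not particular to hepatocyte nuclei.

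Which genes accompanied *Cdkn1a* in the same nuclei was asked next. Each *Cdkn1a* nucleus was set beside the 5 hepatocyte nuclei of its own library that had no *Cdkn1a* UMI and were nearest in total UMIs. The match gave 440 and 975 nuclei with median totals of 9216 and 7475 UMIs, against 9214.5 and 7485 in *Cdkn1a* nuclei. Doublet calls covered 6.82% of *Cdkn1a* nuclei and 7.73% of matched nuclei in the former library, and 7.69% and 9.74% in the latter. UMIs were summed over each set and expressed as CPM, and log2 ratios were taken with 1 CPM added.

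Of 10579 genes with at least 20 UMIs over both sets in each library, 106 (1.0%) were at least 1.5-fold higher in *Cdkn1a* nuclei of both libraries. In both libraries 64 (0.605%) were at least 1.5-fold lower, and 127 (1.20%) passed 1.5-fold in opposite directions. Within 1 library the counts were larger, with 715 and 568 genes higher and 769 and 401 lower. The median log2 ratio over all genes tested was 0.04 and 0.05. Low counts weighed on these numbers. Of the 106 higher genes, 52 were carried by at least 10 *Cdkn1a* nuclei in each library with no nucleus holding over 20% of the UMIs. Among the 106 were genes of antigen-presenting cells, *Cd74*, *H2-Ab1*, *H2-Eb1*, *Ccr2* and *Cybb*, named after their values were seen. In the Flox-labelled library 90.9% of the 11 *Cd74* UMIs lay in 1 nucleus, and in the HKO-labelled library 40.0% of 30 did. Nuclei with a UMI of *Ptprc*, *Cd74*, *H2-Ab1* or *H2-Eb1* made up 7.96% of *Cdkn1a* and 10.2% of matched nuclei in the former, and 19.5% and 17.0% in the latter. Without such nuclei 124 of 10393 genes tested (1.19%) were higher, with 10 of 24 p53 targets tested and 5 daHep markers among them.

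Of a list of 30 targets of p53, 25 were tested, 9 (36.0%) were at least 1.5-fold higher in both libraries and 0 were lower. Among the 9, *Eda2r* and *Psrc1* reached the minimum for testing in the Flox-labelled library only through the *Cdkn1a* nuclei. Their place in the count is no support for it. The median log2 ratio of the 25 was 0.57 in the Flox-labelled library and 0.80 in the HKO-labelled library, and 21 lay above 0 in both. Summed over the 30 genes, p53 targets reached 1969 CPM in *Cdkn1a* nuclei and 1197 in matched nuclei of the Flox-labelled library, a ratio of 1.64 (1.56 to 1.74). The sums in the HKO-labelled library were 2284 and 1416 CPM, a ratio of 1.61 (1.55 to 1.67). The 5 genes not tested were *Phlda3*, *Pmaip1*, *Tnfrsf10b*, *Sfn* and *Trp53i11*, which had too few UMIs.

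*Mdm2*, the ligase that degrades p53, stood at 205 CPM (176 to 238) in *Cdkn1a* nuclei and 109 (99.3 to 119) in matched nuclei of the Flox-labelled library, and at 248 (224 to 274) and 134 (126 to 143) in the HKO-labelled library. Its ratios of 1.89 (1.58 to 2.25) and 1.85 (1.64 to 2.08) were close to each other. *Trp53inp1*, a p53-induced nuclear protein that promotes p53 activity, had 204 against 116 CPM and 390 against 221, with ratios of 1.77 (1.48 to 2.10) and 1.76 (1.60 to 1.93). *Zmat3*, an RNA-binding protein of the p53 response, had ratios of 2.39 (1.68 to 3.35) and 2.34 (1.87 to 2.91). *Trp53* itself, whose protein is controlled mainly by degradation, was at 57.7 CPM against 60.2 and at 45.3 against 44.8, with intervals of the ratio from 0.693 to 1.30 and from 0.772 to 1.31.

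*Btg2*, an antiproliferative gene, stood at 132 against 75.9 CPM and at 157 against 69.3, with ratios of 1.73 (1.39 to 2.15) and 2.27 (1.94 to 2.64). In the Flox-labelled library 1 nucleus held 20.2% of its 114 UMIs in *Cdkn1a* nuclei. *Plk2*, a polo-like kinase induced by stress, stood at 75.0 (57.9 to 95.6) against 28.2 CPM (23.4 to 33.6) and at 77.9 (64.7 to 93.0) against 26.4 (22.9 to 30.3). *Ccng1*, encoding cyclin G1, passed the fold only in the HKO-labelled library, at 78.5 against 38.4 CPM, while the ratio in the Flox-labelled library was 1.42 (1.05 to 1.90). *Plk3*, a related kinase, had a ratio of 1.83 (1.57 to 2.12) in the Flox-labelled library and of 1.01 (0.912 to 1.11) in the HKO-labelled library. In matched nuclei *Plk3* already differed between the libraries, at 155 and 312 CPM.

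Among genes of cell death, *Bax*, the pore-forming protein of mitochondria, had 85.4 against 45.7 CPM and 68.3 against 43.6, with ratios of 1.87 (1.41 to 2.45) and 1.57 (1.25 to 1.95). *Eda2r*, a receptor of the TNF family, had ratios of 2.86 (1.04 to 7.30) and 3.93 (2.35 to 6.52) from 8 and 30 UMIs in *Cdkn1a* nuclei. With 14 UMIs in matched nuclei of the Flox-labelled library, *Eda2r* reached the minimum for testing there only through the *Cdkn1a* nuclei. *Apaf1*, the core of the apoptosome, passed the fold in the HKO-labelled library alone, with ratios of 1.36 (0.574 to 2.91) and 2.60 (1.70 to 3.92). *Bbc3*, encoding PUMA, had ratios of 0.966 and 1.53, and *Fas*, a death receptor, of 1.505 and 1.07. Neither passed in both.

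*Psrc1*, a microtubule-binding protein induced by p53, had the widest ratios of the genes tested in the list. It had 20 UMIs in *Cdkn1a* nuclei and 4 in matched nuclei of the Flox-labelled library, or 23.1 against 0.923 CPM, and 24 and 11 UMIs, or 15.3 against 1.41 CPM, in the HKO-labelled library. The UMIs came from 11 nuclei in each library, and *Psrc1* reached the minimum for testing in both libraries only through the *Cdkn1a* nuclei. Targets that act in DNA repair were described one by one. *Ercc5*, an endonuclease of nucleotide excision repair, had ratios of 1.08 (0.863 to 1.33) and 1.16 (0.978 to 1.36). *Ddb2*, a damage sensor, had ratios of 1.12 (0.790 to 1.56) and 1.17 (0.863 to 1.55), and *Xpc*, another damage sensor, of 1.36 and 0.991. *Polk*, a polymerase that reads through damaged bases, had ratios of 1.49 (1.13 to 1.94) and 1.88 (1.54 to 2.28), past the fold in the HKO-labelled library. *Sesn1*, a sestrin that restrains growth signals, was the tested gene of the list farthest below matched nuclei, with a ratio of 0.667 (0.425 to 1.01) in the Flox-labelled library and 1.04 in the HKO-labelled library.

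**Figure D2:**
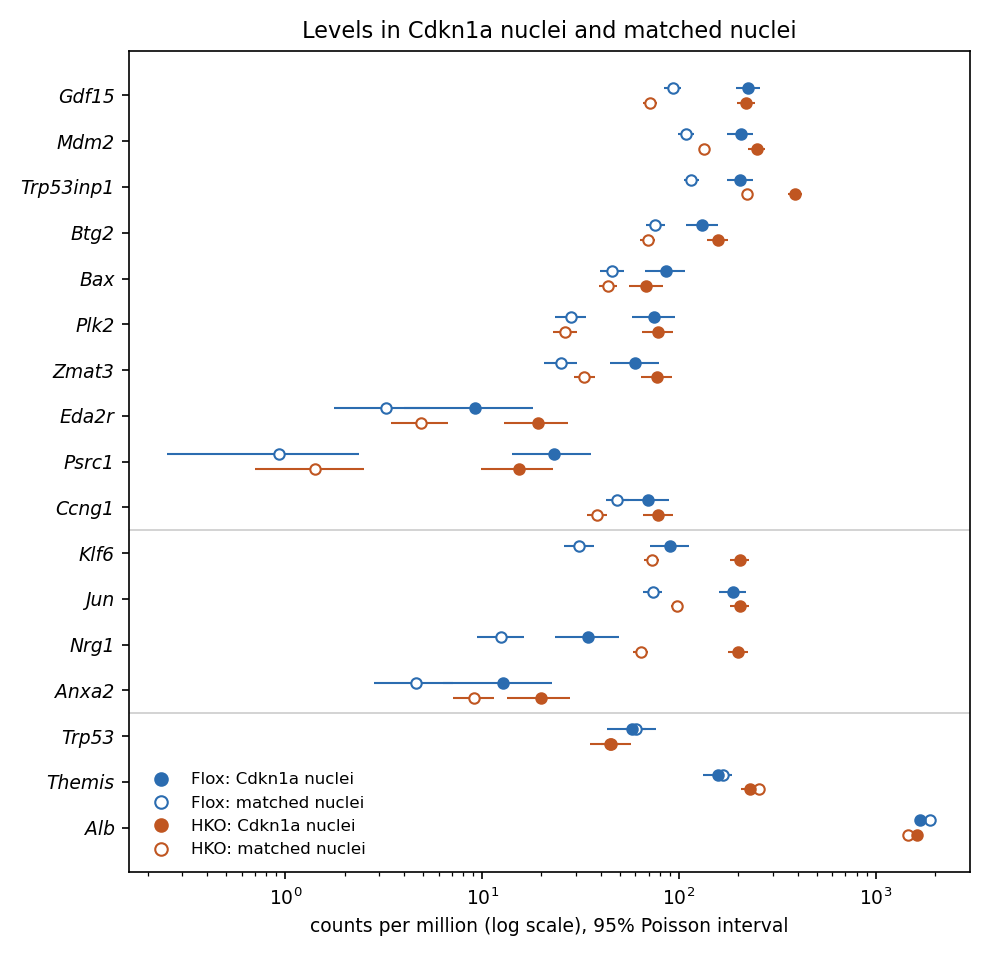
Level (CPM, log axis) of p53 targets (top), disease-associated hepatocyte markers (middle) and 3 reference genes (bottom) in *Cdkn1a* nuclei (filled, 88 and 195 nuclei) and matched nuclei (open, 440 and 975 nuclei) of each library, with 95% Poisson intervals. The p53 targets shown are the 9 that were at least 1.5-fold higher in both libraries, and *Ccng1*. The other targets of the 25 tested are not shown. *Mdm2* goes from 109 to 205 CPM and from 134 to 248 CPM, while *Trp53* stays at 57.7 against 60.2 and 45.3 against 44.8 CPM.

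The other group with a high share past the fold was that of markers the study gives for disease-associated hepatocytes (daHep). The study took daHep from MASH livers and also found them among nuclei of *Themis* Flox and HKO mice. It reports that more daHep than other hepatocytes express *Cdkn1a*, and that a subset of *Nrg1*-positive hepatocytes coexpresses it. The list is thus not independent evidence of its direction. Of 6 genes, 5 were tested and 5 were at least 1.5-fold higher in both libraries, with median log2 ratios of 1.35 and 1.48. Of these, *Anxa2* was carried by only 9 *Cdkn1a* nuclei of the Flox-labelled library, and 1 nucleus held 27.3% of its UMIs. The sum of the 6 genes was 550 against 214 CPM and 865 against 319 CPM, with ratios of 2.57 (2.29 to 2.87) and 2.71 (2.54 to 2.90). After thinning to 3000 UMIs, 43.2% (32.7 to 54.2) of *Cdkn1a* nuclei in the Flox-labelled library kept a UMI of a daHep marker other than *Gdf15*, against 23.2% (19.3 to 27.4) of matched nuclei. The shares in the HKO-labelled library were 58.5% (51.2 to 65.5) and 45.6% (42.5 to 48.8).

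*Gdf15*, a stress hormone of the TGF-β family that is also a p53 target, stood at 225 CPM (195 to 259) against 92.8 (83.9 to 102) and at 220 (198 to 245) against 71.5 (65.7 to 77.7). Its ratios were 2.43 (2.03 to 2.89) and 3.08 (2.69 to 3.53), and 55 of 88 and 108 of 195 *Cdkn1a* nuclei held a UMI. *Nrg1*, the ERBB receptor ligand neuregulin 1, stood at 34.6 against 12.5 CPM in the Flox-labelled library and at 200 against 63.9 CPM in the HKO-labelled library. Its ratios of 2.78 (1.72 to 4.42) and 3.12 (2.70 to 3.61) had overlapping intervals, although its level in matched nuclei was 5.13 times (3.87 to 6.93) higher in the HKO-labelled library. *Anxa2*, a calcium-dependent membrane-binding protein, had ratios of 2.75 (1.19 to 6.02) and 2.18 (1.38 to 3.36) from 11 and 31 UMIs.

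Transcription factors of the early response made up the rest. *Klf6*, a zinc finger factor induced by injury, stood at 90.0 CPM (71.1 to 112) against 31.2 (26.1 to 36.9) and at 204 (182 to 227) against 72.5 (66.7 to 78.7), with ratios of 2.89 (2.16 to 3.85) and 2.81 (2.44 to 3.23). *Jun*, a subunit of AP-1, stood at 188 against 73.4 CPM and at 203 against 97.9, with ratios of 2.56 (2.11 to 3.11) and 2.07 (1.81 to 2.37). *Sox4*, an HMG-box factor, had 0 UMIs in either set of the Flox-labelled library and was not tested. In the HKO-labelled library it had 29 UMIs in 9 *Cdkn1a* nuclei and 31 in matched nuclei, or 18.5 against 3.97 CPM.

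**Figure D3:**
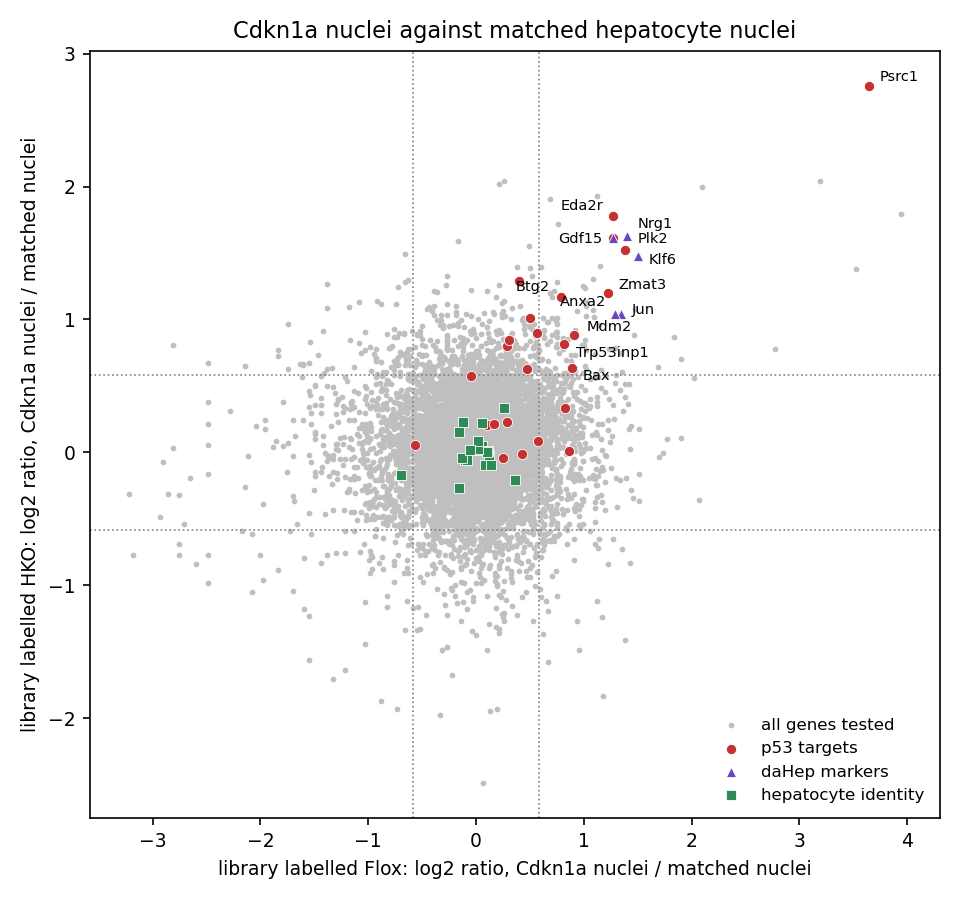
Log2 ratio of *Cdkn1a* nuclei to matched nuclei for the 10579 genes tested (grey), with the Flox-labelled library on the x axis and the HKO-labelled library on the y axis. Dotted lines mark 1.5-fold. Of the p53 targets (red), 9 lie in the upper right corner, as do all 5 daHep markers tested (purple), while the 20 hepatocyte identity genes (green) lie around 0.

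Since most *Cdkn1a* nuclei held a UMI of *Nrg1*, *Anxa2*, *Sox4*, *Klf6* or *Jun* (76.1% and 83.1%), such nuclei were left out of both sets, which kept 21 and 33 *Cdkn1a* nuclei and 105 and 165 matched nuclei. Of 19 p53 targets still testable, 6 were then at least 1.5-fold higher in both libraries, and the list medians were 0.68 and 0.64. Over all 6430 genes then tested, 1.74% were higher in both libraries, with medians of 0.03 and -0.03. *Bax* was no longer higher in the HKO-labelled library, at a log2 ratio of -0.16. *Gdf15* was the one daHep marker that could still pass, since the UMIs of the other 5 were removed with the nuclei, and it passed. This comparison was added after the data had been seen and rests on few nuclei.

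**Figure D4:**
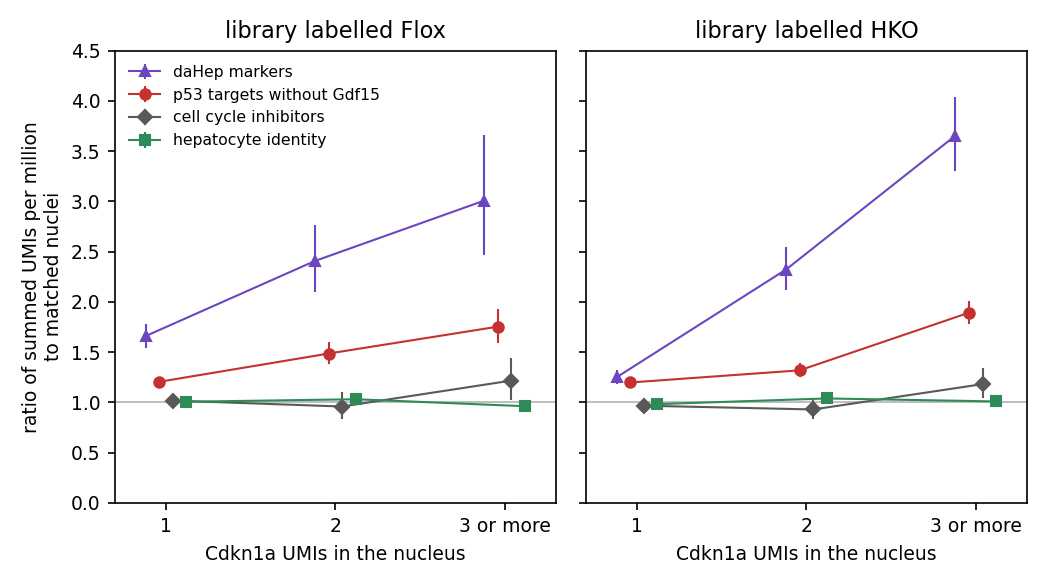
Ratio of the summed CPM of a gene list to that in depth-matched nuclei without *Cdkn1a* UMIs, for nuclei with 1, 2 and 3 or more *Cdkn1a* UMIs (309, 59 and 29 nuclei in the Flox-labelled library; 517, 123 and 72 in the HKO-labelled library). Bars are 95% counting intervals. The daHep markers go from 1.66 to 3.01 and from 1.25 to 3.66, while hepatocyte identity genes stay between 0.962 and 1.04.

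As list sums, the p53 targets and daHep markers had larger ratios in nuclei with more *Cdkn1a* UMIs, while single genes did not all follow. Without *Gdf15*, the p53 targets had summed ratios of 1.20 (1.16 to 1.25) in nuclei with 1 *Cdkn1a* UMI, 1.49 (1.38 to 1.60) with 2 and 1.75 (1.59 to 1.93) with 3 or more in the Flox-labelled library. The HKO-labelled library gave 1.20 (1.16 to 1.23), 1.32 (1.25 to 1.39) and 1.89 (1.78 to 2.01). For daHep markers the ratios were 1.66, 2.41 and 3.01 in the Flox-labelled library, where the intervals of the last 2 overlapped. In the HKO-labelled library they were 1.25 (1.18 to 1.32), 2.32 (2.12 to 2.54) and 3.66 (3.30 to 4.04), with no overlap. In the HKO-labelled library *Plk2* had 1.31 (1.07 to 1.60) with 1 UMI and 1.41 (0.952 to 2.05) with 2. With 3 or more it had 6.54 (4.68 to 9.18). In the Flox-labelled library *Plk2* had 1.28 (1.03 to 1.58) with 1 UMI, 2.81 (1.91 to 4.10) with 2 and 2.44 (1.35 to 4.26) with 3 or more. *Btg2* and *Bax* there were also no higher with 3 or more (1.57 and 1.71) than with 2 (1.79 and 1.92). *Mdm2* went from 1.21 (1.11 to 1.33) to 2.76 (2.32 to 3.28) in the HKO-labelled library, and from 1.20 (1.07 to 1.35) to 2.17 (1.61 to 2.91) in the Flox-labelled library. The 3 sets of nuclei share no nucleus, but their matched nuclei could be shared.

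Within *Cdkn1a* nuclei the p53 targets were spread widely. Thinned to 3000 UMIs, a *Cdkn1a* nucleus of the Flox-labelled library held UMIs of a median of 4 of the 25 targets tested (quartiles 3 and 6, range 0 to 12), and a matched nucleus of 3 (2 and 4, range 0 to 9). The medians in the HKO-labelled library were 4 (3 and 6, range 0 to 13) and 3 (2 and 4, range 0 to 10). At least 3 targets were detected in 79.5% (69.6 to 87.4) against 59.5% (54.8 to 64.2), and in 80.5% (74.2 to 85.8) against 64.5% (61.4 to 67.5). The distributions overlapped broadly. The 25 targets include *Eda2r* and *Psrc1*, which were tested in the Flox-labelled library only through their UMIs in *Cdkn1a* nuclei.

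The other inhibitors of the cell cycle were listed together with lamina and chromatin genes linked to senescence. Of 12 genes, 6 were tested, of which *Cdkn1b*, *Rb1* and *Rbl2* are inhibitors, and 0 passed 1.5-fold in both libraries in either direction, with median log2 ratios of 0.02 and 0.05. In nuclei with 3 or more *Cdkn1a* UMIs the list sum had ratios of 1.22 (1.02 to 1.44) and 1.18 (1.04 to 1.34). With 2 UMIs the ratios were 0.959 (0.832 to 1.10) and 0.929 (0.831 to 1.04). *Cdkn2a*, which encodes p16 and ARF, and *Cdkn2b*, which encodes p15, had 0 UMIs in *Cdkn1a* and matched nuclei of both libraries. Taken at 3 counts, a count of 0 allows up to 3.46 CPM in the *Cdkn1a* nuclei of the Flox-labelled library and 1.91 CPM in those of the HKO-labelled library. *Cdkn1b*, which encodes p27, stood at 94.6 against 83.8 CPM and at 88.7 against 85.8, with ratios of 1.13 (0.878 to 1.44) and 1.03 (0.855 to 1.24). *Rb1*, the retinoblastoma protein, had ratios of 1.32 (0.953 to 1.80) and 1.30 (0.976 to 1.71), and its relative *Rbl2* of 0.896 and 0.838. *Lmnb1*, a nuclear lamina gene whose loss marks senescent cells, had only 5 and 15 UMIs, and its ratios of 0.568 (0.176 to 1.43) and 1.33 (0.701 to 2.39) fell on either side of 1. *Hmgb1*, a chromatin protein released by senescent cells, had ratios of 0.907 (0.754 to 1.09) and 1.04 (0.917 to 1.19), and the related *Hmgb2* of 1.38 (1.03 to 1.83) and 0.948 (0.749 to 1.19).

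The senescence list used in the study held 40 genes once *Cdkn1a* was left out, and only 9 had enough UMIs to be tested. The study filtered this list on expression in hepatocytes, so it is no independent evidence of a direction. Of the 9, 2 were at least 1.5-fold higher in both libraries: *Gdf15* and *Mmp14*, a membrane-bound matrix metalloproteinase, at 23.1 against 12.7 CPM and 29.4 against 19.1. The list medians were 0.27 and 0.25. The other 31 genes of the list could not be compared at this depth.

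The study's proliferation list, curated like the senescence list and no more independent, held 42 genes, of which 23 were tested, 1 was higher and 0 were lower, with medians of 0.06 and 0.12. The 1 gene was *Top2a*, a topoisomerase of dividing cells, at 6.92 against 3.92 CPM and 26.8 against 6.41. Its 6 and 42 UMIs came from 3 and 6 nuclei, and 1 nucleus held 66.7% and 78.6% of them. With 17 UMIs in matched nuclei of the Flox-labelled library, *Top2a* reached the minimum for testing there only through the *Cdkn1a* nuclei. *Pcna*, the replication clamp, had 10.4 against 5.54 CPM and 12.8 against 8.20, and *Mcm6*, a part of the replicative helicase, 6.92 against 4.62 and 6.38 against 3.46, all with intervals of the ratio that include 1. Nuclei with a UMI of *Top2a* or *Mki67* made up 5.68% and 4.10% of *Cdkn1a* nuclei and 2.73% and 2.77% of matched nuclei. With such nuclei left out, 106 of 10507 genes tested (1.01%) were at least 1.5-fold higher in both libraries, with 8 of 25 p53 targets tested among them.

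Stress pathways linked to AP-1 and ERK were described by lists of 24 and 17 genes. For AP-1 and early response, 4 of 17 genes tested were higher and 0 lower, with medians of 0.37 and 0.42. They were *Jun*, *Klf6*, *Ier3* and *Ier5*, of which *Jun* and *Klf6* are also daHep markers and were counted there. *Ier5*, an immediate early gene, stood at 20.8 against 9.23 CPM and 19.1 against 7.17, with ratios of 2.25 (1.21 to 4.02) and 2.67 (1.65 to 4.23). *Ier3*, an early gene that tunes survival and ERK signalling, had ratios of 10.0 (4.04 to 27.0) and 1.81 (1.03 to 3.07), and in the Flox-labelled library its 16 UMIs lay in 4 nuclei. There it reached the minimum for testing only through the *Cdkn1a* nuclei, with 8 UMIs in matched nuclei, so its place in the counts of both lists is no support for them. For ERK feedback and targets, 2 of 9 tested were higher, *Ier3* and *Epha2*. *Epha2*, an ephrin receptor kinase, had 84.2 against 55.1 CPM and 75.3 against 48.9, with ratios of 1.53 (1.16 to 1.99) and 1.54 (1.24 to 1.90). The list medians were 0.55 and 0.11, and the list sums moved apart, with ratios of 1.14 (1.05 to 1.24) and 0.871 (0.810 to 0.935). *Egr1*, a direct ERK target, had ratios of 2.86 (1.44 to 5.47) and 1.37 (0.814 to 2.22), with 75.0% of its 16 UMIs in the Flox-labelled library coming from 1 nucleus.

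Of 9 antioxidant genes under NRF2 tested, 0 passed 1.5-fold in both libraries and 8 had log2 ratios above 0 in both, with medians of 0.30 and 0.36. *Ephx1*, microsomal epoxide hydrolase, had ratios of 1.78 (1.36 to 2.32) and 1.44 (1.17 to 1.76). *Gclc*, the catalytic subunit for glutathione synthesis, had 243 against 197 CPM and 437 against 341, with ratios of 1.24 (1.06 to 1.44) and 1.28 (1.18 to 1.40). *Gstm1*, a glutathione transferase of a family of close copies, had ratios of 1.34 and 1.504. In the list of ER stress and the integrated stress response, 0 of 17 tested passed in both libraries, with medians of -0.02 and 0.30. *Ppp1r15a*, the GADD34 phosphatase subunit, had ratios of 1.45 (0.878 to 2.30) and 1.37 (0.932 to 1.98).

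Inflammatory lists had few genes past the fold. For NF-κB and chemokines 1 of 11 tested was higher, *Nfkb2*, an NF-κB subunit, with ratios of 1.90 (0.730 to 4.48) and 1.90 (1.16 to 3.03) from 8 and 26 UMIs. *Tnfaip3*, the A20 feedback inhibitor, had ratios of 2.24 (1.07 to 4.45) and 1.499 (0.990 to 2.22). The list medians were 0.03 and 0.08, and the list sum lay below matched nuclei in the Flox-labelled library, with a ratio of 0.736 (0.679 to 0.797), and at 1.08 (1.01 to 1.15) in the HKO-labelled library. *Cxcl1*, a neutrophil chemokine and the most abundant gene of the list in the Flox-labelled library, had ratios of 0.502 (0.443 to 0.568) and 0.841 (0.717 to 0.982). Of 13 interferon-stimulated genes and 17 acute phase genes tested, 0 passed in both, with summed ratios of 0.903 (0.822 to 0.990) and 0.974 (0.910 to 1.04), and of 0.862 (0.837 to 0.887) and 1.02 (0.987 to 1.05). *Saa1*, serum amyloid A, stood at 267 against 541 CPM in the Flox-labelled library, a ratio of 0.493 (0.429 to 0.565), and at 56.2 against 78.1 in the HKO-labelled library, a ratio of 0.719 (0.568 to 0.900). *Saa1* has a near-identical neighbour with which its reads can be confused.

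Of 9 cytoskeletal, annexin and S100 genes tested, 0 passed in both libraries, with medians of 0.25 and 0.47 and summed ratios of 1.27 (1.14 to 1.42) and 1.49 (1.40 to 1.60). *Actg1*, cytoplasmic actin, had 75.0 against 50.1 CPM and 122 against 69.2. *Tubb2a*, a tubulin, had ratios of 2.58 (1.87 to 3.54) and 1.39 (1.15 to 1.67). For targets of YAP, the growth-control coactivator, 1 of 6 tested was higher, *Ajuba*, from 6 and 17 UMIs. With 17 UMIs in matched nuclei of the Flox-labelled library, *Ajuba* reached the minimum for testing there only through the *Cdkn1a* nuclei. Biliary reprogramming genes had 4 tested and 0 past the fold, and their summed ratios of 1.18 (0.958 to 1.45) and 0.702 (0.618 to 0.794) lay on either side of 1.

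**Figure D5:**
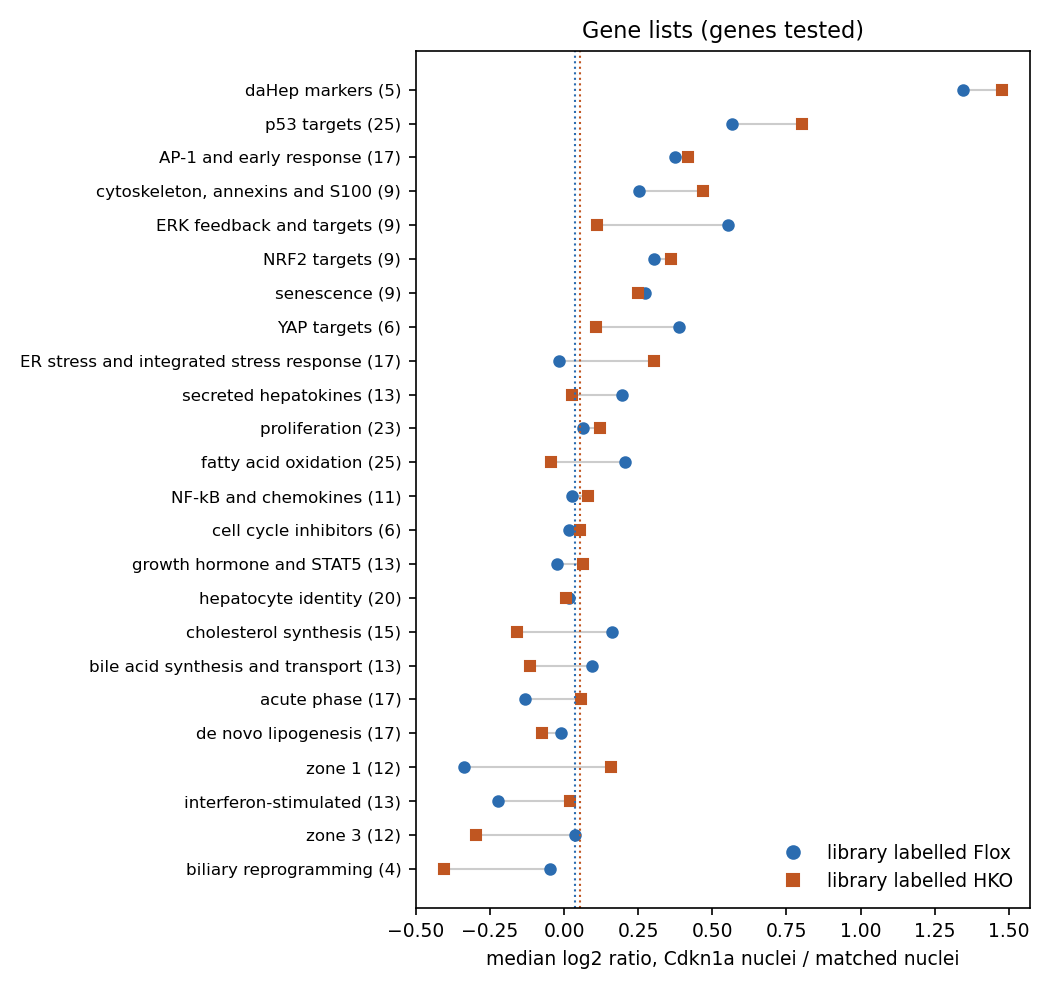
Median log2 ratio of *Cdkn1a* nuclei to matched nuclei for each gene list with at least 4 genes tested (number in brackets), in the Flox-labelled library (circles) and the HKO-labelled library (squares). Dotted lines mark the median over all 10579 genes, 0.04 and 0.05. The daHep markers (1.35 and 1.48) and p53 targets (0.57 and 0.80) stand at the top.

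Genes that define hepatocytes stood near matched nuclei. Of 20 identity genes, 20 were tested and 0 passed 1.5-fold in both libraries, with medians of 0.02 and 0.01 and summed ratios of 1.01 (0.988 to 1.03) and 1.03 (1.01 to 1.04). *Alb*, albumin, stood at 1679 against 1877 CPM and 1623 against 1461, with ratios of 0.894 (0.845 to 0.946) and 1.11 (1.06 to 1.16), on either side of 1. *Hnf4a*, the master factor of hepatocyte identity, had ratios of 1.20 (0.980 to 1.46) and 1.26 (1.09 to 1.46). Their summed level was above 0 in every *Cdkn1a* nucleus, from 6808 to 28567 CPM in the Flox-labelled library and 926 to 49109 in the HKO-labelled library. The medians were 14791 and 11078 CPM, against 15139 and 10618 in matched nuclei. *Themis* itself had ratios whose intervals include 1, at 158 against 168 CPM and 230 against 256, with ratios of 0.940 (0.777 to 1.13) and 0.897 (0.7997 to 1.004).

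Zonation genes, which follow the position of a hepatocyte between portal and central vein, went in no common direction as list sums. Of 12 periportal (zone 1) genes tested, 0 passed in both, with medians of -0.34 and 0.16 and summed ratios of 0.889 (0.858 to 0.920) and 1.03 (1.01 to 1.05). Log2 ratios lay above 0 in both libraries for 2 of the 12 and below 0 in both for 5. *Cyp2f2*, a periportal cytochrome, had ratios of 0.523 (0.398 to 0.677) and 0.922 (0.763 to 1.11). *Gls2* and *Hal*, which break down glutamine and histidine, had ratios of 0.676 and 0.790, and of 0.684 and 0.801. *Apoa4*, an apolipoprotein, lay on the other side, with ratios of 1.81 (1.501 to 2.17) and 1.32 (1.18 to 1.48). Of 12 pericentral (zone 3) genes tested, with medians of 0.04 and -0.30, 1 was lower in both libraries, *Lgr5*, the WNT receptor partner of hepatocytes at the central vein. It stood at 13.8 against 27.9 CPM and 21.1 against 37.2, with ratios of 0.496 (0.249 to 0.898) and 0.567 (0.383 to 0.814). *Oat*, a pericentral aminotransferase, had ratios of 0.599 (0.420 to 0.833) and 0.680 (0.522 to 0.874), and *Slc1a2*, a glutamate transporter, of 0.790 (0.672 to 0.924) and 0.562 (0.496 to 0.634). Of the 12 zone 3 genes, 0 had log2 ratios above 0 in both libraries and 6 had them below 0 in both. The zone 3 sum had ratios of 1.17 (1.12 to 1.22) and 0.842 (0.814 to 0.871), on either side of 1. So had *Cyp2e1*, a cytochrome and the most abundant zone 3 gene in the Flox-labelled library, with 1.29 (1.21 to 1.37) and 0.866 (0.810 to 0.925), and *Glul*, glutamine synthetase, with 1.43 (1.24 to 1.63) and 0.826 (0.7499 to 0.908). *Cxcl1*, *Apoa4*, *Cyp2e1* and *Glul* were named after their values were seen.

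Metabolic lists were described by their medians. The lists for lipogenesis and fatty acid oxidation were also curated by the study on hepatocyte expression and are no independent evidence. For de novo lipogenesis 0 of 17 tested passed in either direction, with medians of -0.01 and -0.08. *Acaca*, acetyl-CoA carboxylase, had ratios of 0.854 (0.676 to 1.07) and 0.738 (0.657 to 0.827), and *Elovl6*, a fatty acid elongase, of 0.776 (0.564 to 1.05) and 0.645 (0.517 to 0.798). For fatty acid oxidation 0 of 25 passed, with medians of 0.21 and -0.05. *Ehhadh*, the peroxisomal bifunctional enzyme, had a ratio of 2.62 (2.00 to 3.41) in the Flox-labelled library and 1.25 (0.908 to 1.70) in the HKO-labelled library. *Acox2*, a peroxisomal oxidase of bile acid precursors, had ratios of 1.29 (1.09 to 1.54) and 1.38 (1.17 to 1.64). For cholesterol synthesis 1 of 15 was lower, *Fdft1*, squalene synthase, named after its values were seen, at 5.77 against 12.2 CPM and 5.74 against 11.4, from 5 and 9 UMIs. For bile acid synthesis and transport 0 of 13 passed, and *Slc27a5*, the bile acid-CoA ligase, had ratios of 0.780 (0.643 to 0.940) and 0.749 (0.599 to 0.927). Of 13 growth hormone and STAT5 genes and 13 secreted hepatokines tested, *Gdf15* alone passed.

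Over all genes tested, ranking was by the smaller of both log2 ratios, among genes found in at least 10 nuclei of the higher set with no nucleus over 20% of its UMIs. The 12 highest were *Klf6*, *Nrg1*, *Plk2*, *Gdf15*, *Zmat3*, *Pogk*, *Ier5*, *Jun*, *9230114K14Rik*, *Tmem43*, *Acot1* and *1810053B23Rik*. *Pogk*, a gene derived from a transposon, had ratios of 2.41 (1.14 to 4.83) and 2.85 (1.84 to 4.35). *Tmem43*, a protein of the nuclear envelope, had ratios of 2.13 (1.13 to 3.83) and 2.47 (1.71 to 3.51). *Acot1*, a fatty acyl-CoA thioesterase with a near-identical neighbour, had 65.8 against 29.3 CPM and 28.1 against 14.0. The uncharacterised *9230114K14Rik* and *1810053B23Rik* had ratios of 2.19 (1.48 to 3.18) and 2.07 (1.54 to 2.76), and of 1.94 (1.28 to 2.87) and 1.91 (1.56 to 2.34).

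The 12 lowest rested on very few UMIs. Of these, *Gas7*, *Gnat1*, *4930594M22Rik* (ENSMUSG00000075463), *Slc15a2*, *Gm10130*, *4930524O07Rik*, *Tent5c*, *A930012O16Rik*, *Gm28818*, *Wfdc2* and *Zfp251* had 0 to 5 UMIs in the *Cdkn1a* nuclei of a library. *Gm10130* had both intervals below 1, with ratios of 0.278 (0.0556 to 0.856) and 0.362 (0.0953 to 0.981) from 3 and 4 UMIs. *Slc15a2*, a peptide transporter, had a ratio of 0.265 (0.0841 to 0.641) in the HKO-labelled library and 0.345 (0.0399 to 1.36) in the Flox-labelled library.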

How the data were processed

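The authors deposited raw UMI counts as 1 matrix per library. Per the submitters' notes and the methods, Cell Ranger 8.0.1 had aligned the reads to GRCm38 with intronic reads excluded, and nothing was normalized. The study removed doublets in its own analysis, and whether the matrices precede that step is not given in the sources used here. Samples were grouped by genotype in the labels. Each *Cdkn1a* nucleus was matched to 5 nuclei without replacement. Summed counts were divided by the total UMIs without *Cdkn1a*, and log2 ratios used a pseudocount of 1 CPM. With 1 library per group no test was possible. Intervals at 95% were exact Poisson for CPM, exact conditional binomial for ratios and Clopper-Pearson for shares. Thinned *Cdkn1a* shares are hypergeometric expectations, rounded to nuclei. Other cell types were nuclei with at least 3 UMIs of their markers. Doublets were called with Scrublet in scanpy 1.11.5 (30 components) and kept, except in 1 alternative. Other alternatives changed the UMI thresholds, the matching, the pseudocount and the gene filter. Scaling alternatives used edgeR 4.0.16 and DESeq2 1.42.0. The comparison was tested on simulated data.

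Named genes were the 12 highest and the 12 lowest by the smaller log2 ratio of both libraries, with at least 20 UMIs per library, found in at least 10 nuclei of the higher set and with no nucleus over 20% of its UMIs. To these were added the tested p53 targets, cell cycle inhibitors and daHep markers, up to 3 genes of every other list in the direction of its median, *Themis*, *Trp53*, *Cdkn2a* and *Alb*, and the 5 genes differing most between the libraries each way. Not all of these are printed, and some of the results are not reported here. The nuclei, lists and rules were chosen with earlier results of these data known.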

Additional observations from a re-analysis of the deposited data

Results flagged for a closer look

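In 127 genes (1.20% of those tested) the *Cdkn1a* nuclei of one library lay at least 1.5-fold above matched nuclei and those of the other at least 1.5-fold below. The 4 given here are those also named for the widest gap between the libraries. The difference was not tested, since there is 1 library per genotype. *Hsdl1* had 11 UMIs in *Cdkn1a* and 22 in matched nuclei of the Flox-labelled library and 3 and 46 in the HKO-labelled library, so that its log2 ratio differed by -2.41 (HKO minus Flox). *Arhgef10* had 13 and 32 UMIs against 2 and 35, a difference of -2.20. *Fam83f* had 11 and 21 UMIs against 2 and 24, a difference of -2.07. *2810002D19Rik* had 0 and 26 UMIs against 17 and 45, a difference of 3.62 that depends on the pseudocount.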

How the results depend on the processing

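No paired analysis was possible because each genotype has 1 library. For the same reason no replicate could be left out. The share of hepatocyte nuclei with at least 2 *Cdkn1a* UMIs was 3.16 to 4.53 times higher in the HKO-labelled library over its alternatives at this threshold, and that with at least 1 UMI was 3.07 times higher. Among nuclei of at least 1000 UMIs the ratio for at least 2 *Cdkn1a* UMIs was 2.54 unthinned and 4.68 thinned to 1000, the latter from shares of 0.0777% and 0.364%. Outside nuclei with exactly 1 *Cdkn1a* UMI, 6 to 11 p53 targets passed 1.5-fold in both libraries. The number of p53 targets tested ranged there from 19 to 30. Of all genes tested, 0.293% to 2.065% were higher in both libraries. Depth limits the rest. Counts of higher, lower and opposite genes were 106, 64 and 127 of 10579 tested, and 31, 3 and 3 of 10579 with a pseudocount of 10 CPM. They were 30, 10 and 9 of 6747 with at least 100 UMIs per gene (daHep 3, senescence 1), and 297, 264 and 480 of 15245 with no filter.

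With at least 3 *Cdkn1a* UMIs the counts were 177, 110 and 219 of 8571 genes tested (daHep 3), and with unmatched nuclei 166, 232 and 273 of 12908. With 1 nearest nucleus 25 of 8372 genes tested were lower. Of senescence genes, 1 passed with unmatched nuclei, TMM factors, DESeq2 size factors, no *Malat1* and mitochondrial genes, or the larger pseudocount.

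Nuclei with exactly 1 *Cdkn1a* UMI are other nuclei by construction. Of 12096 genes tested, they gave 30 higher, 22 lower and 31 opposite, with 2 of 25 p53 targets, 0 daHep markers and 0 senescence genes higher. Log2 ratios that changed sign there in the Flox-labelled library were *Ier5* -0.057, *Gnat1* 0.50, *Slc15a2* 0.012, *Gm10130* 0.018, *Gm28818* 0.26, *Sesn2* -0.019, *Top2a* -0.25, *Epha2* -0.14, *Egr1* -0.92, *Gbp10* 0.076, *Ajuba* -0.45, *Lgr5* 0.020, *Itgb1bp1* -0.33 and *2810002D19Rik* 0.055. In the HKO-labelled library they were *4930594M22Rik* (ENSMUSG00000075463) 0.033, *Gm28818* 0.19, *Wfdc2* 0.15, *Zfp251* 0.069, *Nfkb2* -0.11, *Hsdl1* 0.0040, *Arhgef10* 0.24, *Gm36419* 0.19 and *Fam83f* 0.37. The cause was not tested.

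Further alternatives were chosen after seeing the data. Without nuclei holding daHep marker UMIs, 196 of 6430 genes tested were lower, 285 were opposite, and 1 daHep marker and 1 senescence gene passed, with fewer nuclei. Both are *Gdf15*, by construction the one daHep marker left that could pass. The log2 ratio was then -0.21 for *9230114K14Rik*, 7.95e-05 for *Lgr5* and 0.48 for *Oat* (Flox-labelled) and -0.16 for *Bax* (HKO-labelled). Without nuclei with immune gene UMIs *Nfkb2* was at -0.0486, and without those with *Top2a* or *Mki67* UMIs *Pcna* was at -0.11 (both Flox-labelled). Without *Cdkn1a* nuclei of at least 5 UMIs 1 senescence gene passed.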

Other observations

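Some genes outside the lists were also at least 1.5-fold higher or lower in both libraries and were picked out after their values were seen. *Rps27l*, a ribosomal protein-like gene known as a p53 target, stood at 41.5 against 20.5 CPM in the Flox-labelled library and at 35.1 against 19.6 in the HKO-labelled library, with ratios of 2.02 (1.33 to 3.01) and 1.79 (1.29 to 2.45). *Txnip*, an inhibitor of thioredoxin, had ratios of 1.86 (1.55 to 2.21) and 1.56 (1.34 to 1.80). *Cyp4a14*, a fatty acid hydroxylase under PPARα, had ratios of 1.69 (1.38 to 2.06) and 1.74 (1.53 to 1.98), and *Pdk4*, a kinase that curbs glucose oxidation, had 33.5 against 2.77 CPM and 35.7 against 7.94. The *Pdk4* UMIs came from 5 and 17 nuclei. In the Flox-labelled library *Pdk4* reached the minimum for testing only through the *Cdkn1a* nuclei.

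The uncharacterised *Gm42047* stood at 1470 against 456 CPM and at 1254 against 801. Among lower genes, *Foxq1*, a forkhead factor, had ratios of 0.539 (0.362 to 0.777) and 0.572 (0.420 to 0.766). *Mup9*, a major urinary protein of a family of near-identical copies, had ratios of 0.628 (0.571 to 0.690) and 0.526 (0.385 to 0.704).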
